A study of Mus musculus with 2 samples.

Results

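The promoters described here are those of 724 protein-coding mouse genes that were poor in CpG dinucleotides and open in both replicates of the facial prominences of the mouse embryo, from which jaws, palate and nose form. They were 724 of 4326 CpG-poor promoters, and of 15559 autosomal promoters that could be classified. A promoter qualified when all annotated transcription start sites (TSS) of its gene in the basic GENCODE M21 set lay within 500 bp of each other. It was called CpG-poor when the ratio of observed to expected CpG in the 500 bp on either side of the TSS was under 0.3, and open when a peak of replicate 1 and a peak of replicate 2 overlapped each other in that window. The members were therefore chosen by measured values, and their number and their peak scores are descriptions without a test.

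The data came from DNase-seq, which maps accessible DNA by cutting chromatin with DNase I. The single group held 2 biological replicates of tissue, with both sexes pooled, from B6NCrl mouse embryos of 14.5 days, and the labels name no treatment. They are separate biosamples under a shared donor record in the labels, and no other tissue or treatment was compared. The authors deposited 304489 peaks for replicate 1 and 218221 for replicate 2, all 150 bp wide on the chromosomes used, and read depth is unknown. Each peak carries the authors' score, a whole number up to 150 used here only to describe and rank peaks within a list. In tissue made of many cell types, a weak peak in many cells and a strong peak in few cannot be told apart.

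Most mammalian promoters overlap CpG islands, stretches in which CpG has been kept by the absence of methylation in the germ line, and such promoters are open in nearly every cell type. Promoters outside islands tend to belong to genes used by particular cell types, such as those of matrix, muscle, skin and blood. They more often carry a TATA box, the sequence bound by TBP shortly upstream of the TSS, and they depend on factors that recognise short motifs nearby.

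The sequence just upstream of the TSS shows what such promoters look like. Sequences are given 5′ to 3′ on the strand of the gene, end at the base before the TSS, and come from the RefSeq copy of GRCm38.p6, whose coordinates are those of mm10. None overlaps an annotated exon. The first set holds members that led the cell-type gene lists, taken as the member of highest mean rank with exon-free sequence that led no earlier list. Of 14 such leaders, 6 held one of the marked motifs in 100 bp, and 4 of them are shown. Capitals mark, as written or as the reverse complement, CCAAT, the motif of NF-Y, GGGCGG, the GC box of the SP and KLF factors, or CAGCTG, an E-box of bHLH factors. The positions are Lgals1 chr15:78926625-78926724 (plus strand), Dmp1 chr5:104202513-104202612 (plus strand), Neurod4 chr10:130280241-130280340 (minus strand) and Lgi4 chr7:31059242-31059341 (plus strand).
Lgals1: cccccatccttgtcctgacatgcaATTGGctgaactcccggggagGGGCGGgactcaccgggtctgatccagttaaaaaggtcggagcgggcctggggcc
Dmp1: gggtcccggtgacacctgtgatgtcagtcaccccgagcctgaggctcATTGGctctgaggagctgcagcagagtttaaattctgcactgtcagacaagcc
Neurod4: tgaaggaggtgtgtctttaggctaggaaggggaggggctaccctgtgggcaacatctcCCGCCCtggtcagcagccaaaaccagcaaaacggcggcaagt
Lgi4: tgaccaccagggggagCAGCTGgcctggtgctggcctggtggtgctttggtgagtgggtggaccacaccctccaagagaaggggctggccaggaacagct

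None of these leaders had TATAA at the place of a TATA box. The second set was chosen after the values were seen, to show members that did. It holds 6 members of the lists, 60 bp upstream each, with TATAA in capitals between 32 and 28 bp before the TSS (and CAGCTG or CCAAT where present). The positions are S100a4 chr3:90603711-90603770 (plus strand), Cilp chr9:65265120-65265179 (plus strand), Klk4 chr7:43881100-43881159 (plus strand), Trim63 chr4:134315060-134315119 (plus strand), Myh3 chr11:67078240-67078299 (plus strand) and Sprr1a chr3:92485896-92485955 (minus strand).
S100a4: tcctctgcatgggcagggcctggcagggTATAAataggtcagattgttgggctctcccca
Cilp: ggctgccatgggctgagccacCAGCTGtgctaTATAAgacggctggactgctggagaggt
Klk4: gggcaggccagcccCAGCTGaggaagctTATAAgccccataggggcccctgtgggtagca
Trim63: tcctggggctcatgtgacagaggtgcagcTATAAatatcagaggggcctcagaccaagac
Myh3: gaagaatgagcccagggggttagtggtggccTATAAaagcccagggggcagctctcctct
Sprr1a: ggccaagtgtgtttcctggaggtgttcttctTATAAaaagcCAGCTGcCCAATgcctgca

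Further sets, also chosen after the values were seen, show motifs known from the regulation of a gene class. In muscle genes capitals mark CAGCTG and, in Cox6a2, CTA and TAG with any 4 bases between, the core of the MEF2 site, and in Atp2a1 also CCAAT. In interferon-stimulated genes they mark GAAA and GAAA with any 2 bases between (or the reverse complement), the core of the interferon-stimulated response element, which overlaps itself in Isg15 and Oas1a, and in Oas1a also CCAAT. The positions are Chrna1 chr2:73580339-73580438 (minus strand), Atp2a1 chr7:126463109-126463208 (minus strand), Cox6a2 chr7:128206388-128206487 (minus strand), Isg15 chr4:156200819-156200918 (minus strand), Ifit1 chr19:34640771-34640870 (plus strand) and Oas1a chr5:120907522-120907621 (minus strand).
Chrna1: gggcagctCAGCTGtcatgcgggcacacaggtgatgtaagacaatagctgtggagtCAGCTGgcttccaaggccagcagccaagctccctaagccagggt
Atp2a1: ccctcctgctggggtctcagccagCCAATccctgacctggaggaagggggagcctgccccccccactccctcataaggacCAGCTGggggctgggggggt
Cox6a2: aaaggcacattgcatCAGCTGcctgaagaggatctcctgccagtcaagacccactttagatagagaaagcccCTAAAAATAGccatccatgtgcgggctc
Isg15: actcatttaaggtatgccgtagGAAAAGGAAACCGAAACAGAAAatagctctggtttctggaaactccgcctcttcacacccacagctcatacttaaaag
Ifit1: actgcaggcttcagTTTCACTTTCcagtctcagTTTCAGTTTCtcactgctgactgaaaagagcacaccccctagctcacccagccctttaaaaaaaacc
Oas1a: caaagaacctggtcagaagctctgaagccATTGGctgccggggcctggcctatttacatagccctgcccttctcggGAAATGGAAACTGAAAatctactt

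Open CpG-poor promoters were the exception in their class. Of the 4326 CpG-poor promoters, 16.7% were open in both replicates (exact Clopper-Pearson 95% interval 15.6 to 17.9%, which like all intervals here covers counting error only). The same state was found at 96.9% of 8133 CpG-rich promoters (ratio of 0.6 or more) and at 69.5% of all 15559. Since the rule used these peaks, nothing further is read from the contrast. Among the other CpG-poor promoters, 302 had a peak in replicate 1 only, 58 in replicate 2 only, 9 in both without overlap, and 3233 had none. Replicate 1 has the longer peak list, and with lists of equal length 647 CpG-poor promoters were open in both.

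The open share differed widely within the CpG-poor class itself. Below a CpG ratio of 0.05, 11 of 277 promoters (3.97%) were open. The share was 10.4% between 0.10 and 0.15, and 35.0% of 615 promoters between 0.25 and 0.30. The scores of the open promoters moved the same way, with medians of 46 in replicate 1 and 25 in replicate 2 in the lowest class, and 77 and 49 in the highest CpG-poor class. No step was seen at the threshold of 0.3. Above it the share went on to 43.7% between 0.30 and 0.35 and passed 90% above 0.55.

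**Figure D1:**
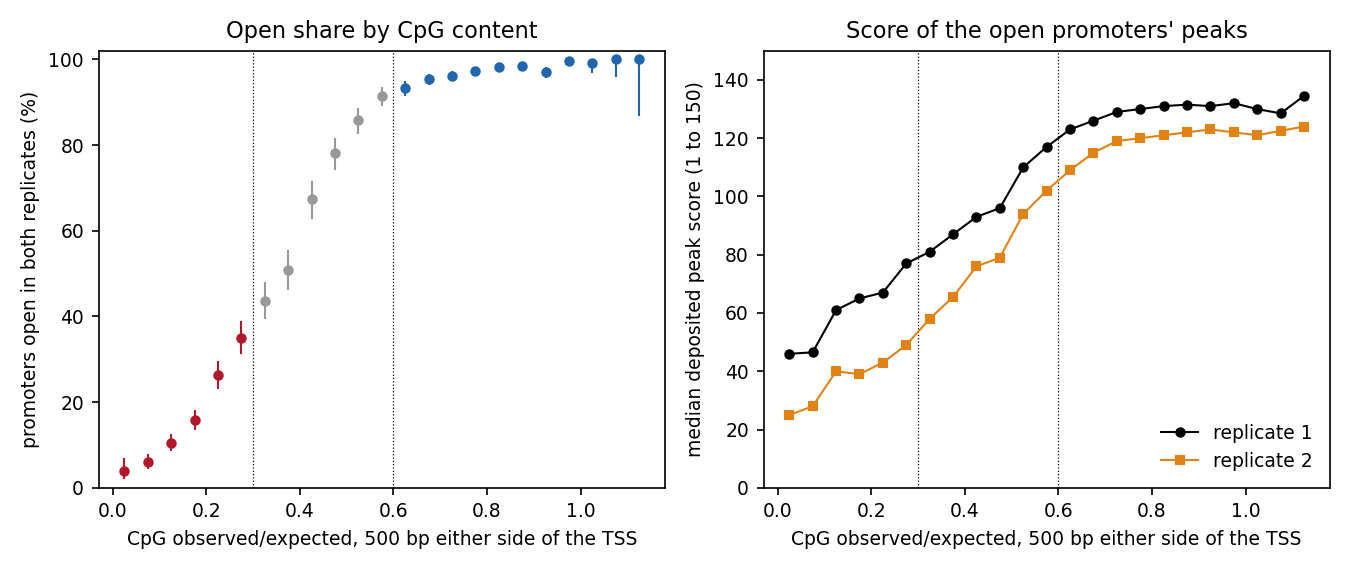
Share of promoters open in both replicates (left, percent with exact 95% intervals) and median deposited peak score of the open promoters in each replicate (right), against the CpG observed/expected ratio in classes 0.05 wide; red marks CpG-poor, grey middle and blue CpG-rich classes, and dotted lines the limits of 0.3 and 0.6. In the red classes the share climbs from class to class, with 3.97% in the lowest and 35.0% in the class just under 0.3.

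The 5 members just under it were Gm28710, Spred3, Smim18, Cpq and Efcab1, with ratios of 0.2991 to 0.2999. Cpq had scores of 103 in replicate 1 and 78 in replicate 2, and Smim18 had 51 and 31. The 5 open genes just over it were Zfp937, 3300002I08Rik, Col1a1, Wdr72 and Trim34a, with ratios of 0.3001 to 0.3007. Col1a1, the main collagen gene of bone and skin, had scores of 122 and 102 at a ratio of 0.3004 and so is not a member. Within 0.02 of the threshold lay 86 members below it and 84 open genes above it.

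The members' peaks had lower scores, and lay in narrower hotspots, than those of CpG-rich open promoters. Their scores had medians of 68 in replicate 1 (quartiles 50 and 88.25) and 42 in replicate 2 (30 and 60), against 130 and 119 at the 7884 CpG-rich open promoters. The medians over all peaks were 50 and 37, so 75.7% of members in replicate 1 and 59.7% in replicate 2 were at or above the median of their list. Every member also lay in a hotspot of each replicate, the broader regions that the authors called, but so did every open promoter of the other CpG classes. The members' hotspots were 351.5 bp wide in replicate 1 and 276 bp in replicate 2 (medians), against 1004 and 1007 bp at CpG-rich open promoters. A single peak in the window in each replicate was found at 64.4% of members and at 24.9% of CpG-rich open promoters.

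**Figure D2:**
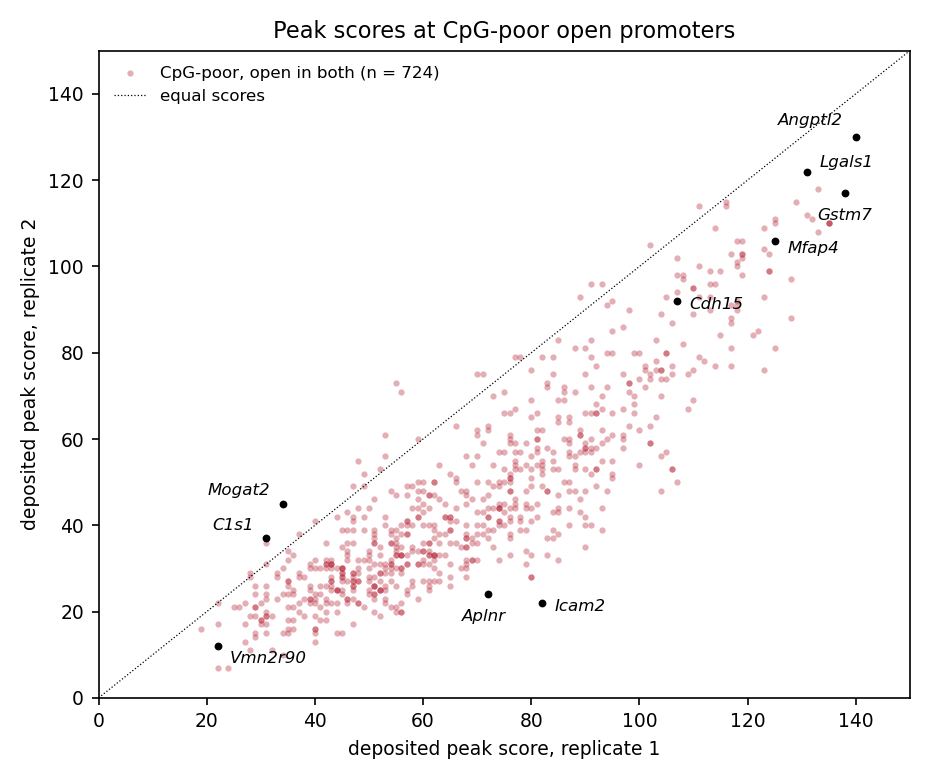
Deposited peak score of each of the 724 members in replicate 1 (horizontal) and replicate 2 (vertical), with the line of equal scores and named genes in black. Most points lie under the line, Angptl2 is at 140 and 130, and Icam2 and Aplnr stand far below it at 82 and 22 and at 72 and 24.

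The shared peak of a member was often close to the start site. Its centre was at a median of −51 bp from the TSS (quartiles −120.5 and 25.5), against −55.5 bp (−109.5 and −11.5) at CpG-rich open promoters. It lay within 100 bp of the TSS at 53.2% of members (49.5 to 56.9%) and at 63.1% of CpG-rich open promoters (62.0 to 64.2%). More members had a distant peak, since 21.4% had a centre over 250 bp away, against 12.4% of CpG-rich open promoters. The TSS nearest to the centre was the gene's own at 97.7% of members, against 87.2% of CpG-rich open promoters. Another coding gene's TSS fell in the window of 2.90% of members, 1.92% of other CpG-poor promoters and 18.8% of CpG-rich open ones. Because 6 peaks served 2 members each, such as Tmem176a with Tmem176b and Ifit1 with Ifit1bl2, the 724 members rest on 718 distinct sites.

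**Figure D3:**
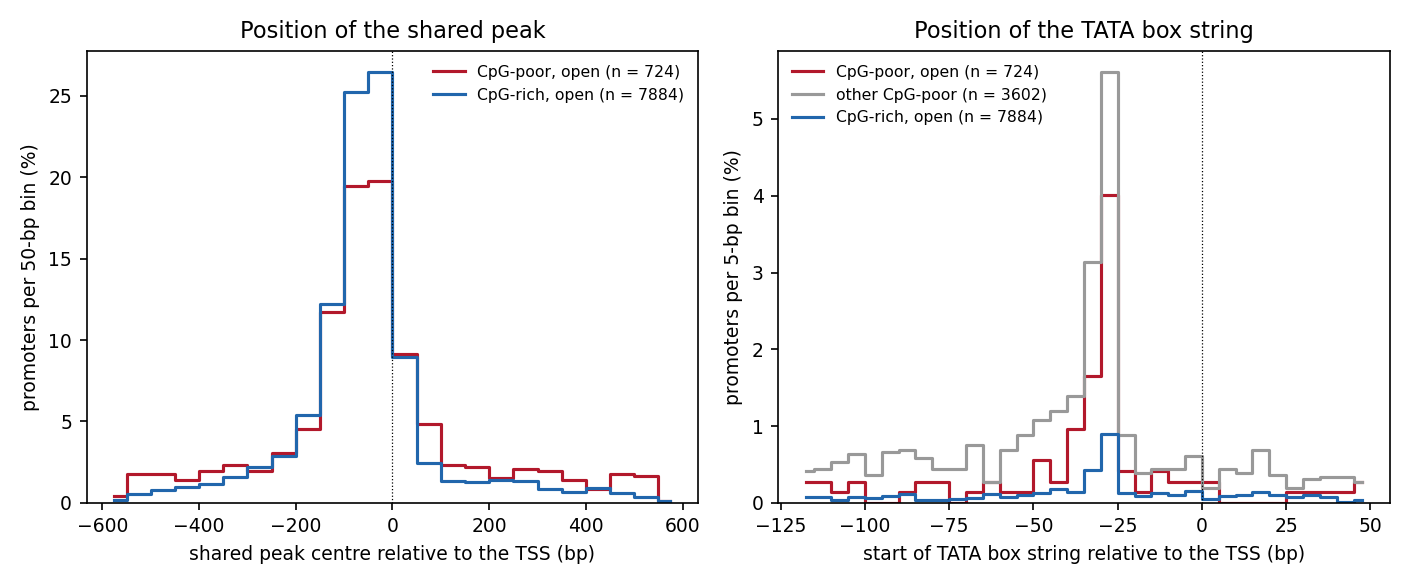
Left, distance of the shared peak's centre from the TSS (bp, negative is upstream) as percent of promoters per 50-bp class; right, start of the string TATAA on the gene's strand as percent of promoters per 5-bp class. The members' peaks centre just upstream of the TSS with longer tails than those of CpG-rich open promoters, and the TATAA strings of members, of other CpG-poor promoters and of CpG-rich open promoters all peak 30 to 25 bp upstream.

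In 1001 bp centred on the peak, 665 of 724 members had a CpG ratio under 0.3, 59 had 0.3 or more and 1 had 0.6 or more. For most members this window shares nearly all its bases with the one that the rule used, so these numbers follow largely from the rule. That one was Pgs1, a mitochondrial phospholipid synthase, whose peak centre lay 528.5 bp downstream of the TSS. The members with no CpG at all in the window were 4931408C20Rik, Serpina3i and Gm5771. Their scores were below the members' medians, at 60, 33 and 22 in replicate 1 and 31, 23 and 7 in replicate 2. At 9 members, 50% or more of the peak was repeat sequence as masked in the reference. These were Emilin1, Col6a3, Kcna5, Ssc5d, Gprc6a, Gpr21, C87499, Gbp4 and Gm12689.

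The strongest members reached the level of CpG-rich promoters. Angptl2, a secreted angiopoietin-like protein, had the highest mean rank, with scores of 140 in replicate 1 and 130 in replicate 2 at a CpG ratio of 0.239. Gstm7, a glutathione S-transferase, had 138 and 117, and Lgals1, the matrix lectin galectin-1, had 131 and 122. Gm20661, Fcgrt, the neonatal Fc receptor chain, Tmem176a, Tmem176b, Tpcn2, an endolysosomal cation channel, and G430095P16Rik had scores of 129 to 135 in replicate 1 and 110 to 118 in replicate 2. All of these were above the medians of CpG-rich open promoters in replicate 1 except Tpcn2, and in replicate 2 only Angptl2 and Lgals1 were.

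The rest of the 20 highest included Iqca, Naa80, which acetylates actin, Akna, Emilin1 and Mfap4, proteins of elastic fibres, Sra1, Pgs1, Tpp1, a lysosomal peptidase, Angptl1 and Btn2a2. Their scores were 116 to 133 in replicate 1 and 103 to 115 in replicate 2. The shared peak was over 250 bp from the TSS at 7 of the 20, against 155 of 724 members in all. At 5 of the 20, Iqca, Naa80, Sra1, Pgs1 and Angptl1, the CpG ratio around the peak was 0.3 or more. At Naa80, Iqca and Tmem176b the nearest TSS belonged to another gene, namely Hyal3, the non-coding 4930434B07Rik and Tmem176a. The peak of Tmem176b, centred −313.5 bp from its TSS, is the one it shares with Tmem176a.

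The members were then grouped by the cell types that use their genes, with 14 face lists and 6 comparison lists. The face lists are of cells taken as ones the dissected tissue could hold, and the pituitary list was counted among them. Over the face lists 108 of 265 CpG-poor promoters were open, or 40.8% (34.8 to 46.9%), and over genes of the comparison lists alone 11 of 164, or 6.71% (3.40 to 11.7%). All CpG-poor promoters gave 16.7%. The lists were chosen with earlier results of these data known, so the contrast is a description. Genes in both kinds of list were counted with the face lists only. Among them were the open cardiomyocyte genes Actc1, Ankrd1, Myh7 and Cox6a2, so the comparison share is lower than with them. In classes of CpG ratio the face-list share was higher as well, but with few promoters in the lowest class. Between 0.2 and 0.3, 51.2% of 127 face-list promoters and 11.3% of 71 comparison promoters were open, against 30.2% of all 1365. Between 0.1 and 0.2 the shares were 34.8% for face lists and 2.74% for comparison lists, against 13.1% of all. Below 0.1 they were 4 of 26 for face lists (15.4%, 4.36 to 34.9%) and 1 of 20 for comparison lists (5%, 0.127 to 24.9%), whose intervals overlap widely, against 5.38% of all. Face-list genes made up 14.9% of the members, so most members belong to no list.

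**Figure D4:**
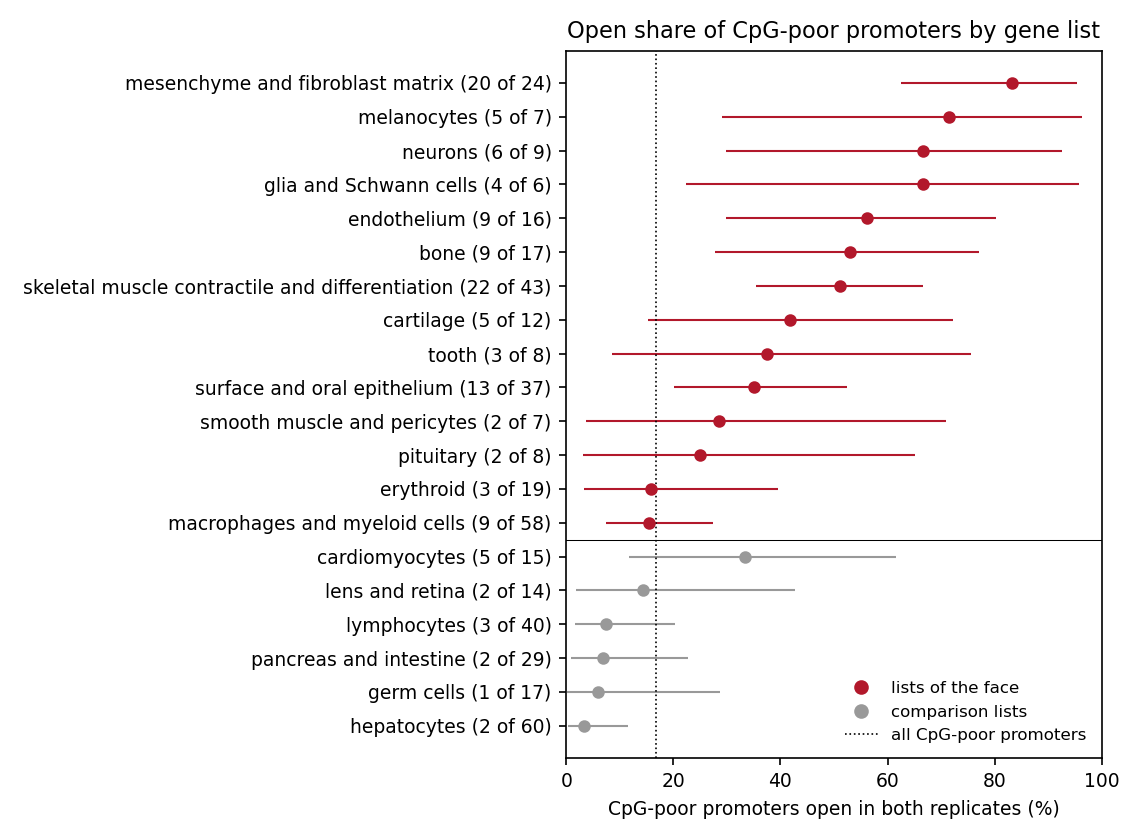
Share of CpG-poor promoters open in both replicates for each gene list (percent with exact 95% intervals, open and CpG-poor numbers in brackets), face lists in red above and comparison lists in grey below, with the share of all CpG-poor promoters (16.7%) as a dotted line. The matrix list stands highest at 83.3% and the hepatocyte list lowest at 3.33%.

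Genes of mesenchyme and fibroblast matrix had the highest open share, 20 of 24 CpG-poor promoters (83.3%, 62.6 to 95.3%). They include Col3a1, the chain of type III collagen, with scores of 117 in replicate 1 and 91 in replicate 2, and Col6a1 and Col6a3 of microfibrillar collagen VI, with 121 and 84 and with 128 and 88. Emilin1 had 125 and 110, Mfap4 125 and 106, and Ogn, the small leucine-rich proteoglycan osteoglycin, 114 and 109. The list's median scores of 103.5 and 79 were above the members' medians of 68 and 42. Postn (94 and 80), which encodes periostin, and Mgp (95 and 85), an inhibitor of calcification, were also open, while Ecm1 was lowest with 46 and 32. Of the 4 that were not open in both, Ecm2 and Spon2 had a peak in replicate 1 only, with scores of 38 and 79, and Kera and Mfap5 had none.

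Bone, cartilage and tooth lists were open in part. Their shares were 52.9% (27.8 to 77%), 41.7% (15.2 to 72.3%) and 37.5% (8.52 to 75.5%). The cartilage and tooth intervals include the 16.7% of all CpG-poor promoters. Bone genes were open at 9 of 17. Fgf23, a phosphate-regulating hormone of osteocytes, had scores of 104 and 76, Col24a1 90 and 75, Panx3, a channel of osteoblasts, 91 and 52, and Ctsk, the matrix protease of osteoclasts, 81 and 57. Sp7, the osteoblast transcription factor osterix, had 68 and 38, and Ibsp, bone sialoprotein, 72 and 39. The osteocalcin genes Bglap and Bglap2 and the osteoclast fusion gene Dcstamp had no peak. Cartilage genes were open at 5 of 12, namely Itga10 (78 and 53), a collagen-binding integrin, Cilp (76 and 51), Mia (80 and 28), Ptgds (61 and 33) and Cytl1 (49 and 21).

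The other cartilage genes taken by the same rule were not open in both replicates. Clec3a had a peak of 35 in replicate 1 only, Cnmd, which encodes chondromodulin, had none, and Matn1, a cartilage matrix protein, had peaks of 62 and 25 that did not overlap. In the tooth list Sostdc1, a BMP antagonist of dental epithelium, had 97 and 60, Dmp1, a mineralisation protein, 62 and 33, and Klk4, an enamel protease, 56 and 33. The other 5 of its 8 CpG-poor genes were not open in both, among them Ambn with a peak of 55 in replicate 1 only and Amtn and Enam, enamel matrix genes, with none.

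Skeletal muscle had more open CpG-poor promoters than any other list, 22 of 43 (51.2%, 35.5 to 66.7%). The highest were Cdh15, the cadherin of muscle progenitors, with 107 and 92, Ankrd2 with 97 and 86, Pygm, muscle glycogen phosphorylase, with 84 and 75, and Chrnd with 92 and 53. Chrnd, Chrng (92 and 53) and Chrna1 (90 and 42) encode subunits of the acetylcholine receptor, and Chrng is the fetal one. Actc1, an actin of fetal muscle and heart, had 83 and 48, and Myh3, embryonic myosin, 52 and 29. The adult form Chrne had no peak. Mymx, a fusion protein of myoblasts, had 86 and 50, Tnni1, the slow troponin I, 56 and 40, and Atp2a1, a calcium pump, 53 and 26. Cox6a2 was lowest with 29 and 19. Of the 21 that were not open in both, 11 had a peak in replicate 1 only and 2 in replicate 2 only. Acta1, skeletal actin, had 49 in replicate 1 and none in replicate 2. Cacna1s, the muscle calcium channel, had 35 in replicate 2 and none in replicate 1. Ckm, Myh1 and Tnnc2 had 46, 44 and 60 in replicate 1 only, and Myl2, Tcap, Tnnc1 and Tnni3 had no peak. Of 5 CpG-poor troponin genes, 1 was open, namely Tnni1 (20%, 0.505 to 71.6%, against 16.7% of all CpG-poor promoters). Apart from Cdh15, Ankrd2, Pygm, Chrnd, Acta1, Cacna1s and Chrne, the genes of this list were named after their values were seen.

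Surface and oral epithelium was open at 13 of 37 (35.1%, 20.2 to 52.5%). The keratins of the basal layer Krt14 (70 and 62), Krt5 (71 and 43) and Krt15 (62 and 33) were members, as was Col17a1 (56 and 33), a collagen of the hemidesmosome that anchors them. So were Sostdc1 (97 and 60), Rab25 (87 and 65), a GTPase of epithelial trafficking, S100a14 (90 and 59) and Cldn8 (93 and 39), a claudin of tight junctions. Genes of differentiating or cornified layers were found open and not open. Krtdap (61 and 36), which encodes a keratinocyte differentiation protein, Sprr1a (51 and 24), a precursor of the cornified envelope, and Tgm5 (46 and 33), a transglutaminase that cross-links that envelope, were members. The cornified-layer genes Lor, Ivl, Lce1a1, Sprr1b, Sprr2a1, Sprr2d, Sprr3 and Tgm3 had no peak, and Cnfn had 23 in replicate 2 only. Genes without a peak also included the keratins Krt13, Krt16, Krt6b and Krt76, and Crct1, Dsg3, Ly6d and Lypd3. Dsg1a, Krt6a and Krt77 had 33, 35 and 41 in replicate 1 only. Of all 22 CpG-poor keratin genes, 4 were open (18.2%, 5.19 to 40.3%), close to the 16.7% of all CpG-poor promoters. The genes of this list were named after their values were seen, apart from the 4 highest members, Cnfn, Crct1 and Dsg1a.

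Neurons, glia and melanocytes gave small lists. Neuronal genes were open at 6 of 9, with Neurod4, a proneural bHLH factor, at 85 and 83, Stmn4 at 89 and 61, Nhlh1 at 85 and 53 and Stmn2 at 73 and 39. Dbh and Mrgprd had no peak and Sncg had 38 in replicate 1 only. Glial genes were open at 4 of 6. Lgi4, a secreted Schwann cell protein, had 92 and 77, Fabp7 had 80 and 69, S100b 87 and 48 and Cdh19 45 and 24, while Cldn19 and Pmp2 had no peak.

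Melanocyte genes were open at 5 of 7 with low scores. Mc1r, the melanocortin receptor, had 46 and 43, Oca2 62 and 30, Mlana 51 and 26, Tyrp1 40 and 19 and Slc24a5 35 and 21. Pmel and Tyr, which encode a melanosome protein and tyrosinase, had no peak. The list's medians were 46 and 26, both under the members' medians of 68 and 42.

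Endothelial genes were open at 9 of 16 (56.2%, 29.9 to 80.2%). Tie1, an endothelial receptor, had 67 and 30, Stab1 60 and 32, Cdh5, the cadherin of endothelial junctions, 57 and 33, and Icam2 82 and 22. None of the 9 reached a score above 33 in replicate 2. The list's medians of 60 and 26 were under the members' medians of 68 and 42. Of the other 7, Cd93, Notch4 and Robo4 had a peak in replicate 1 only (46, 44 and 48), and Fabp4, Lyve1, Mmrn2 and Selp had none.

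Smooth muscle and pericyte genes were open at 2 of 7 (28.6%, 3.67 to 71%), an interval that includes the 16.7% of all CpG-poor promoters. The open genes were Aoc3 (103 and 83) and Cnn1 (55 and 20), the smooth muscle calponin. Acta2 had peaks of 102 and 53 that did not overlap, Ndufa4l2 had 45 in replicate 1 only and Pln had none. Pituitary genes were open at 2 of 8 (25%, 3.19 to 65.1%), and this interval also includes 16.7%. The open genes were Lhb (66 and 51) and Ghrhr (48 and 32), with centres at −409.5 and 317.5 bp from the TSS.

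The blood lists were near the background of 16.7%. Macrophage and myeloid genes were open at 9 of 58 (15.5%, 7.35 to 27.4%), with Cd68 at 82 and 62, the chemokine Ccl2 at 81 and 60, Arhgdib at 89 and 46 and S100a8 at 57 and 47. A further 11 had a peak in replicate 1 only, C1qb among them with 38, and C1qa and C1qc, the other complement C1q chains, had none. Erythroid genes were open at 3 of 19, among them Cd59a (119 and 98), a complement inhibitor of many cell types, and Epor (69 and 46), the erythropoietin receptor. Epb42 had 26 in replicate 1 only and Ermap and Hba-a1, an alpha globin gene, had none.

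Among the comparison lists, those of liver, lymphocytes, gut and germ cells had few members. Hepatocyte genes were open at 2 of 60, Arg1 (102 and 59) and Itih2 (42 and 30), with A1bg, Abcb11 and Adh1 without a peak. Lymphocyte genes were open at 3 of 40, Rag1 (79 and 39), Cd28 (60 and 45) and Ms4a1 (29 and 14), with Blk, Ccl5 and Ccr7 without. Pancreas and intestine gave 2 of 29 (Pnliprp1 and Spink4), lens and retina 2 of 14 (Sag and Cryba1) and germ cells 1 of 17 (Odf1). Cardiomyocyte genes were open at 5 of 15 (33.3%, 11.8 to 61.6%). Of these, Actc1, Ankrd1, Myh7 and Cox6a2 are also in the skeletal muscle list, and the other is Cox7a1 (95 and 80).

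**Figure D5:**
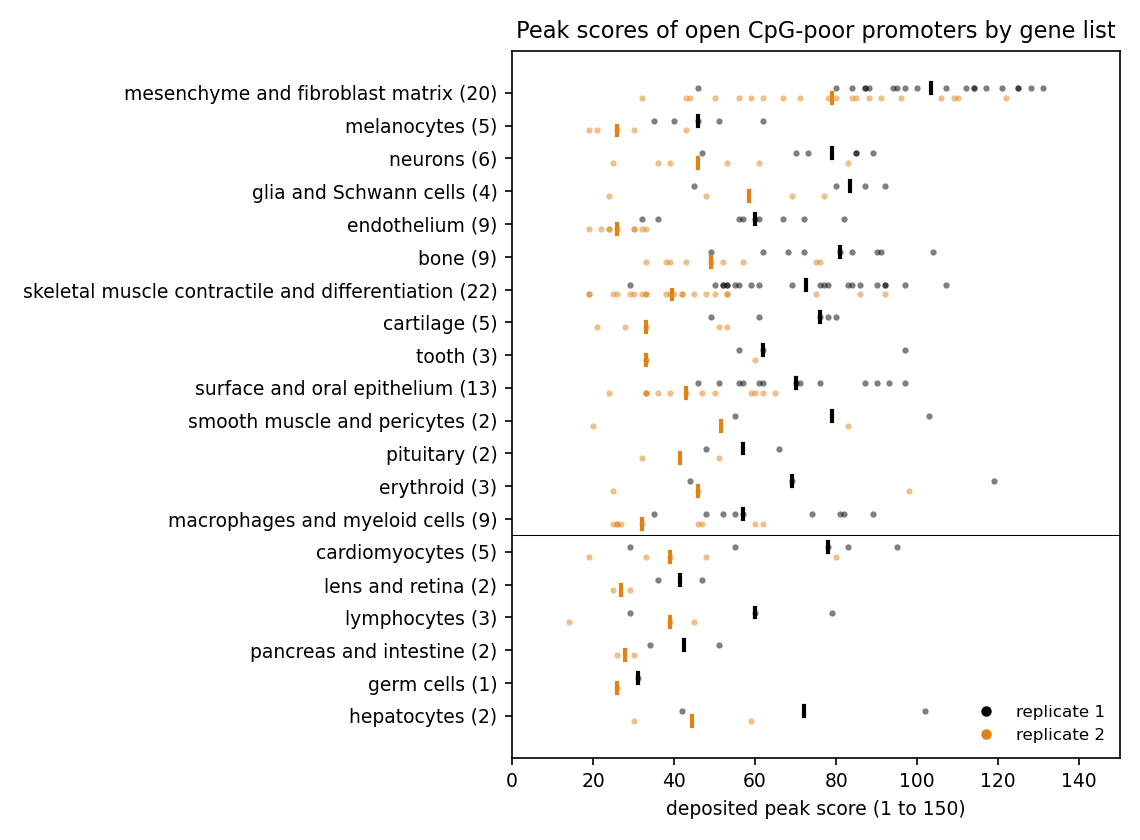
Deposited peak scores of the open CpG-poor promoters in each gene list (number in brackets), replicate 1 in black and replicate 2 in orange, with a bar at each median; face lists above the line and comparison lists below it. Matrix genes have medians of 103.5 and 79, melanocyte genes 46 and 26, and endothelial genes 60 and 26.

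Gene families were followed by symbol. Chemosensory receptor genes were nearly all without shared peaks, with 3 of 209 CpG-poor olfactory receptor genes open, 2 of 191 vomeronasal and 0 of 35 bitter taste receptor genes of the Tas2r family, for which the exact interval reaches 10%. The olfactory members Olfr433, Olfr1414 and Olfr215 had scores of 47, 39 and 32 in replicate 1 and 23, 23 and 11 in replicate 2. Outside the olfactory and vomeronasal receptors, 719 of 3926 CpG-poor promoters (18.3%) were open. Keratin-associated protein genes, which form hair, were open at 2 of 48. In contrast, small leucine-rich proteoglycans were open at 6 of 8, collagens at 5 of 8 and S100 calcium-binding proteins at 4 of 7. G protein-coupled receptors named Gpr were open at 10 of 32 (31.2%, 16.1 to 50%), an interval that includes the 16.7% of all CpG-poor promoters.

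Other families were singled out after their values were seen. Interferon-stimulated genes, which act in antiviral defence, were open at 30 of 56. The antiviral enzyme gene Rsad2 had 114 and 77, Trim12c 123 and 93, Ifi35 105 and 80, and Isg15, a ubiquitin-like modifier, 57 and 41. MHC class II genes, which present antigen, were open at 6 of 8, with H2-Ab1 at 95 and 92, H2-Eb1 at 91 and 96 and H2-Aa at 90 and 81. H2-DMb1 had 72 and 62, the invariant chain gene Cd74 51 and 46 and H2-Ob 51 and 37. At H2-Eb1 the score was higher in replicate 2, although scores in that list run lower. Glutathione S-transferases were open at 5 of 9 and galectins, with the galectin-related Lgals3bp counted among them, at 5 of 7. The Cyp2j and Cyp4f subfamilies were open at 7 of 14, with Cyp4f13 at 119 and 103. The whole cytochrome P450 family was open at 10 of 73 (13.7%), against 16.7% of all CpG-poor promoters. Gstm6 had 99 and 68 and Gstm2 92 and 66, below Gstm7 of the same cluster. Of the galectins, sugar-binding proteins, Lgals9 had 88 and 81, Lgals12 92 and 68 and Lgals7 76 and 50, together with the related Lgals3bp at 97 and 75. All 4 CpG-poor genes of aldehyde dehydrogenase class 3 were open, with Aldh3b1 at 83 and 72 and Aldh3a1 at 43 and 31.

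Members also lay next to each other in the genome. In 30 clusters of 3 or more members, with neighbouring starts close enough for 3 to fit in 200 kb, lay 103 members. The longest held 6 members each. One was formed by Rarres2, Gm45021, Gimap8, Gimap5, Tmem176b and Tmem176a (chr6:48572755-48841512, mm10), with 6 of the 8 CpG-poor promoters of the stretch. The other held 5530401A14Rik, Gm17268 and the chemokine genes Ccl2, Ccl7, Ccl11 and Ccl12 (chr11:81860679-82101845), and all 6 CpG-poor promoters of that stretch were open. The matrix proteoglycan genes Aspn, Omd and Ogn (chr13:49544443-49608046), the class II genes H2-DMb1, H2-Ob, H2-Ab1, H2-Aa and H2-Eb1, the complement protease genes C1ra, C1rb, C1rl and C1s1, and Gstm2, Gstm6 and Gstm7 formed others. The share of CpG-poor promoters that were open within a cluster varied, with 3 of 7 for the cluster of Klk4, Klk10 and Klk13, 3 of 6 for that of S100a4, S100a8 and S100a14 and 5 of 6 for the class II genes. Each stretch begins and ends at a member, so these shares are raised by how it was drawn and do not describe the wider locus. How CpG-poor promoters cluster whether open or not was not compared. Within a cluster scores could differ widely, from 31 and 37 at C1s1 to 104 and 70 at C1rl.

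Shared open sites were also frequent around members. Between 1 and 50 kb from the TSS there was a median of 11 sites shared by both replicates (quartiles 6 and 16), against 4 (1 and 10) at other CpG-poor promoters and 10 (6 and 14) at CpG-rich open ones. No such site was found at 1.52% of members, 24.6% of other CpG-poor promoters and 0.507% of CpG-rich open ones. Without the olfactory and vomeronasal receptor genes, other CpG-poor promoters had a median of 5 and none at 19.6%. Among the 181 members of highest mean rank the median was 13, and among the 181 of lowest it was 6. Vwa5a, with scores of 108 and 98, was the strongest of the 11 members with no site in that range. These counts come from the same peak lists as the members.

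The replicates gave the members a similar order. Over the 724 promoters, which share libraries and are not replicates, the scores had a Spearman correlation of 0.875, against 0.900 over CpG-rich open promoters. The genes farthest from that order were taken by the difference in rank percentile. This difference also moves with the length of the lists, 304233 peaks in replicate 1 and 217980 in replicate 2, so only the scores are given. Towards replicate 1 they were Icam2 (82 and 22), Aplnr (72 and 24), the apelin receptor of endothelium, Gm21983 and Mia, which share a peak (80 and 28), and Gm49391 (56 and 20). Towards replicate 2 they were Mogat2 (34 and 45), C1s1 (31 and 37), Tex48 (31 and 36), Them5 (37 and 38) and C1rb (48 and 55). The labels name instruments for one replicate and none for the other, so effects of list length, sequencing and the tissue sample cannot be told apart.

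The lowest members lay near the floor of both lists. Gm5771 had 22 and 7, Vmn2r90 22 and 12, Unc93a2 24 and 7, Adgre4 19 and 16 and Ifi211 22 and 17. All 5 were under the lower quartiles of the whole lists, which were 38 and 26.

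Strength went with CpG content among the members, while a peak close to the TSS was more frequent mainly in the 181 of highest mean rank. The 181 of highest mean rank had a median CpG ratio of 0.237, and 60.8% had the peak centre within 100 bp of the TSS. The 181 of lowest mean rank had a median ratio of 0.185, and 48.6% had the centre that close. In the groups of 181 between them, the median ratios were 0.221 and 0.207 and the shares 51.4% and 51.9%. Of the 20 highest members, 7 had a centre over 250 bp away. Members whose centre was over 250 bp away had median scores of 62 and 39, against 70 and 44 for the 385 members within 100 bp. Of all members, 29 had the centre more than 500 bp from the TSS, the farthest being AW551984 at −563.5 bp with scores of 110 and 76.

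A TATA box was found in few members. TATAA on the gene's strand, starting 40 to 20 bp before the TSS, was present at 51 of 724 members (7.04%, 5.29 to 9.16%), 10.9% of other CpG-poor promoters (9.91 to 12%), 1.60% of CpG-rich open promoters and 4.42% of all 15559. Of the members' strings, 29 started 30 to 26 bp upstream. The strongest with one were Btbd17 (118 and 101), Adamtsl2 (118 and 92), a secreted matrix protein, 9330159F19Rik (104 and 76) and Serpinb1a (105 and 74). S100a4 (100 and 62), a calcium-binding protein of fibroblasts, led those in a list. Members with the string had median scores of 59 and 36, against 68 and 42 for those without, and their peaks had a median centre of −58.5 bp, against −50.5 bp for those without. Of the 51, 13 were in a gene list, including Myh3, Trim63, Klk4, Krtdap, Ccl7 and Ccl12.

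The share of TATAA was also lower in members within classes of GC content. Members had a median GC content of 50.45% in the window, other CpG-poor promoters 45.45% and CpG-rich open ones 61.44%, so motif shares were set side by side in classes of GC. Between 40 and 45% GC, TATAA was found at 9.38% of 96 members and 12.4% of 854 other CpG-poor promoters. Between 45 and 50% GC, it was found at 7.51% of 213 members and 10.9% of 875 other CpG-poor promoters. Between 50 and 55% GC it was found at 4.70% of 234 and 10.8% of 753, and between 55 and 60% GC at 7.52% of 133 and 8.37% of 239.

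Other motifs were searched on both strands from 250 bp upstream to 50 bp downstream of the TSS. GGGCGG, which itself holds a CpG, was found at 21% of members, 6.61% of other CpG-poor promoters, 73.2% of CpG-rich open ones and 49.2% of all. Between 40 and 45% GC it was at 2.08% of members and 2.93% of other CpG-poor promoters. The order was the other way in the 3 higher classes, with 13.6% of members and 6.63% of other CpG-poor promoters between 45 and 50% GC, 24.8% and 12.2% of the same sets between 50 and 55%, and 39.1% and 22.2% between 55 and 60%. Classes of GC do not level CpG content. The median CpG ratio was 0.211 at members and 0.149 at other CpG-poor promoters, and shares at equal CpG content were not compared. CAGCTG was at 27.8% of members, 16.5% of other CpG-poor promoters, 13.2% of CpG-rich open ones and 15.7% of all. Its share was higher in members in each of the 4 GC classes, with 28.6% of members and 24.8% of other CpG-poor promoters between 50 and 55% GC and 35.3% and 23.8% of the same sets between 55 and 60% GC. CACCTG, another E-box, did not show the same order, with 23.3% of members, 27.0% of other CpG-poor promoters, 16.1% of CpG-rich open ones and 20.4% of all. Its share was lower in members in each of the 4 GC classes. It was at 14.6% of members and 29.9% of other CpG-poor promoters between 40 and 45% GC, and at 31.6% and 36.8% between 55 and 60%.

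CCAAT was about as frequent in every set, at 34.3% of members, 39.4% of other CpG-poor promoters, 37.8% of CpG-rich open ones and 38.0% of all. TGANTCA, the AP-1 site, was at 10.9%, 12.3%, 3.56% and 6.55% in the same sets. Its order differed between GC classes. It was at 20.8% of members and 11.4% of other CpG-poor promoters between 40 and 45% GC, and at 10.5% and 8.79% between 55 and 60%. Between 45 and 50% GC it was at 7.98% and 9.37% of these sets, and between 50 and 55% at 8.97% and 9.69%. The MEF2 core was at 4.83% of members and 4.83% of other CpG-poor promoters, 2.66% of CpG-rich open ones and 3.43% of all. The interferon-stimulated response core was at 6.77% of members, 4.58% of other CpG-poor promoters, 2.55% of CpG-rich open ones and 3.48% of all. GATAAG, the GATA factor site, was at 7.6% of members, 12.5% of other CpG-poor promoters, 3.56% of CpG-rich open ones and 6.57% of all. TGTGGT, the RUNX core, was at 20.6% of members and 24.4%, 9.93% and 14.9% of the same other sets. CAGGAAGT, an ETS site, was at 5.94% of members and 4.83%, 2.56% and 3.45% of the others.

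For motifs that contain CpG, a lower share in members than at CpG-rich open promoters follows from how both sets were defined. TCACGTG, a site of MITF and related factors, was at 1.93% of members, 1.33% of other CpG-poor promoters, 6.28% of CpG-rich open ones and 4.52% of all. TGACGTCA, the CREB site, was at 0.967% of members, 0.722% of other CpG-poor promoters, 4.02% of CpG-rich open ones and 2.69% of all. These matches are letters in a window and say nothing on whether a factor was bound.

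Motifs known from the regulation of a gene class were found in open promoters and in others. CAGCTG, the E-box used by MyoD-type factors, was in 15 of 22 open muscle promoters, including Chrna1, Atp2a1 and Cox6a2, and in 9 of the 21 other CpG-poor ones. The searched window is set by the TSS and not by the peak, so a motif can lie away from the open site. At Atp2a1 the string starts at −20 bp and the peak centre was at −152.5 bp. The MEF2 core shown in Cox6a2 was in 1 of 22 open muscle promoters and in 3 of the 21 others. The interferon-stimulated response core was in 16 of 30 open interferon-stimulated promoters, including Isg15, Ifit1 and Oas1a, and in 16 of the 26 others. CCAAT was in 5 of 6 open class II promoters, where the Y box is known to bind NF-Y, and in both of the others.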

How the data were processed

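The authors called peaks and hotspots separately for each replicate and deposited them in mm10 coordinates, per the labels. The deposited peak score is a whole number with no stated normalization, and the deposited hotspot value is a −log10 q-value in the authors' broad peak format, at most 100. The aligner, the caller and its settings, and the read depth were not given in these sources, so a region without a peak is not shown to be closed.

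Regions on chromosomes 1 to 19, X and Y were used, with repeated coordinates kept once, which left 304233 and 217980 peaks. Of 20807 autosomal protein-coding genes, 5248 whose start sites spanned over 500 bp were left out. The TSS was the middle of the annotated positions, and the CpG ratio is CpG count times length over the product of C and G counts in 1001 bp. Of several overlapping peak pairs, the one of highest mean rank percentile within the lists stood for the promoter. Chromosome lengths of the reference equalled mm10. Python 3.11.15, numpy 2.4.6, scipy 1.17.1 and matplotlib 3.10.9 were used, and the promoter calls were tested on simulated data. With 1 group of 2 replicates no test was made.

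The members, the 20 gene lists, the 42 families and the 21 motifs were chosen with earlier results of these data known, and 11 further families after their values were seen. Lists hold 1153 symbols, of which 1144 matched the annotation, and some share genes. Genes were named by rule: the 20 members of highest and 5 of lowest mean rank, up to 4 open and 3 other CpG-poor genes of each list, those nearest the CpG threshold, the 5 largest replicate differences each way, and members of clusters. Other genes named, in families and motif paragraphs and beyond these numbers in the lists, were picked with their values in view. Alternatives covered the window, CpG threshold, TSS choice, overlap, peak strength, hotspots, list length, single replicates and the TATA string, and 2 more were added after seeing the data.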

Additional observations from a re-analysis of the deposited data

How the results depend on the processing

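The direction between CpG-poor, face-list and CpG-rich promoters was the same under the alternatives run. The number of members was 473 with genes of one start position only and 415 with peaks at or above their list's median score, against 724, and between 509 and 953 in the other alternatives that used both replicates. From a main value of 16.7%, the open share of CpG-poor promoters was 20.6% with a window of 1000 bp, 13.7% and 19.6% with CpG thresholds of 0.25 and 0.35, 14.3% with one start position, 9.59% with the stronger peaks, 15% with lists of equal length and, added after seeing the data, 18.3% without olfactory and vomeronasal receptor genes. The open share of CpG-rich promoters, 96.9%, was 97.5% with the wider window, 96.1% with one start position, 95.6% with an overlap of at least 75 bp, 95.1% with the stronger peaks, 97.3% with hotspots, 96.4% with lists of equal length and, added after seeing the data, 96.5% without windows that hold another coding start site. The face-list share of 40.8% became 23.8% with the stronger peaks. TATAAA in place of TATAA was found at 4.56% of members. The cause of these shifts was not tested.

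With a single replicate sufficing (without replicate 1 or without replicate 2), the number was 791 to 1035, the CpG-poor share 18.3 to 23.9%, the CpG-rich share 97.6 to 97.7%, the TATAA share 7.21 to 7.83% and the face-list share 43.8 to 55.8%, the higher value of each with replicate 1 alone. The nearest instead of the highest-ranked peak gave a median distance of −49.5 bp. No paired analysis was possible because the samples form 1 group. Read depth is unknown, so a missing peak can be a limit of detection.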
